A study of Arabidopsis thaliana with 12 samples.

Results

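Low phosphate was compared with sufficient phosphate in roots of the *crr* mutant of *Arabidopsis thaliana*, gene by gene, over the 20017 genes of the deposited expression table. The 3 *crr* -Pi libraries were set against the 3 *crr* +Pi libraries, 6 of the 12 libraries of the series. The others are 3 libraries each of the wild type Col-0 on -Pi and on +Pi, and they are used here only to show where *crr* roots differed. All seedlings grew for 7 days on agar with salts of Murashige and Skoog medium at a reduced strength, with no phosphate added (-Pi) or with 1 mM phosphate (+Pi), and only roots were taken. *crr* is 1 T-DNA insertion line in the Col-0 background, with the insertion in the first intron of *CRR*, and each library pools the roots of many seedlings. *CRR* encodes a plasma membrane protein with a cytochrome b561 and a DOMON domain, which the study describes as a ferric reductase. The mean level of *CRR* was -0.11 log2 CPM in *crr* -Pi and -0.38 log2 CPM in *crr* +Pi roots, against 5.64 and 5.99 log2 CPM in Col-0 -Pi and Col-0 +Pi roots.

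Plants take up phosphorus as inorganic phosphate (Pi), which binds to iron and aluminium in soil and is often scarce. When cells are rich in Pi, inositol pyrophosphates let SPX proteins hold the transcription factor PHR1 and its relatives away from DNA. When Pi runs low, PHR1 binds a short palindromic motif, P1BS, before genes for Pi transporters, secreted phosphatases and enzymes that replace phospholipids with lipids free of phosphorus. Low Pi also makes root hairs longer and, where iron is present, arrests the growth of the primary root tip.

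Every level is a mean that the authors computed over the libraries of a group, in log2 CPM, where CPM is a gene's read count scaled to the size of its library, so a difference of 1 is 2-fold and 0 log2 CPM is 1 CPM. Only these means were used, so no spread between replicates, interval or test can be given for any difference, and "higher" and "lower" describe the authors' means. A gene was counted where its mean reached 1 log2 CPM in *crr* -Pi or in *crr* +Pi, which held for 18213 genes. A gene that is low in one of the groups enters through the other, so the counts are descriptions. As a gauge, *crr* +Pi and Col-0 +Pi roots, grown on the same medium, differed with an SD of 0.167 log2 units over genes, and by at least 2-fold in 2 genes higher (0.0111%) and 14 lower (0.078%) in *crr* of 17958 genes. That gauge shares the *crr* +Pi libraries and holds the effect of the genotype, *CRR* itself included.

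In *crr* roots 706 genes (3.88%) were at least 2-fold higher on -Pi than on +Pi, and 502 genes (2.76%) were at least 2-fold lower. All counts of list members below stand against these shares of all genes. The median difference over genes was 0.0081 and its SD 0.618 log2 units. The high side reached further, with 229 genes at least 4-fold higher against 77 at least 4-fold lower, and 52 genes at least 16-fold higher against 5 at least 16-fold lower. The 706 genes made up 3.71% of the summed CPM in *crr* -Pi and 1.11% in *crr* +Pi roots. The 502 genes made up 0.917% in *crr* -Pi and 2.36% in *crr* +Pi roots. Both sets hold more weakly expressed genes than the rest: among genes whose higher mean was 1 to 3 log2 CPM, 7.88% were at least 2-fold higher and 5.56% lower, against 2.07% and 1.41% of genes at 5 to 7 log2 CPM. The plot of levels in *crr* -Pi against *crr* +Pi roots shows both sides.

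**Figure D1:**
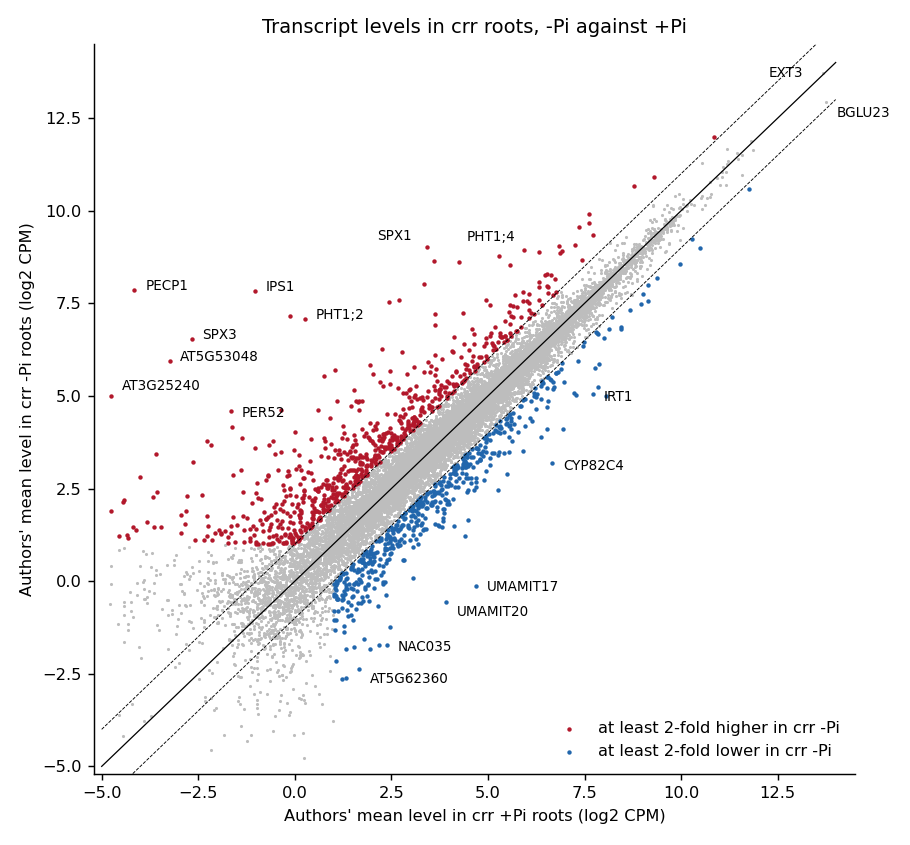
Mean level of each gene in *crr* -Pi roots (vertical axis, log2 CPM) against *crr* +Pi roots (horizontal axis, log2 CPM), 1 point per gene, with genes at the table's lowest value left out. The solid line marks equal levels and the dashed lines 2-fold differences; PECP1, at 7.85 in *crr* -Pi and -4.15 in *crr* +Pi, lies farthest above, and UMAMIT17, at -0.13 and 4.69, farthest below among genes over 1 log2 CPM.

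Of the 15 genes with the largest positive difference, 6 carry the P1BS motif in the 250 bases before their start. Their upstream bases are printed here because this motif is the letter pattern that the response is known for, and the 6 genes run from a signalling protein to transporters and to genes of unknown role. Each line runs 5′ to 3′ and ends at the base before the start of the gene in RefSeq's annotation of TAIR10.1, with the P1BS matches in capitals. They lie at chr3:9192243-9192492 (plus strand) for AT3G25240, chr2:18606160-18606409 (plus) for SPX3, chr5:21509611-21509860 (plus) for AT5G53048, chr5:17415448-17415697 (plus) for PHT1;2, chr3:20250949-20251198 (minus) for PHT1;7 and chr1:2562317-2562566 (minus) for AT1G08165.
AT3G25240: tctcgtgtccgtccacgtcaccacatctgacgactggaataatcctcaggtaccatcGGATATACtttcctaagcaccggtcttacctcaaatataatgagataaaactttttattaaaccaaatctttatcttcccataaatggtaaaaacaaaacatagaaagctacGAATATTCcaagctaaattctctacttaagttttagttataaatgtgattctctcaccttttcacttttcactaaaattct
SPX3: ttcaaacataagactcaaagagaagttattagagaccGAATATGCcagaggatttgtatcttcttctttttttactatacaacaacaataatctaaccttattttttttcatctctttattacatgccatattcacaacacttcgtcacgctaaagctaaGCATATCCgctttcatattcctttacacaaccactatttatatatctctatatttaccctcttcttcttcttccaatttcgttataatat
AT5G53048: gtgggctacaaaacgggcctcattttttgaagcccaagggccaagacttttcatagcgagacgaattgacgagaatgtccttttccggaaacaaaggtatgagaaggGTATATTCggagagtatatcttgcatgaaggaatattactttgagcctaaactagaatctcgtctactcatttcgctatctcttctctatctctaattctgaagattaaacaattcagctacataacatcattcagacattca
PHT1;2: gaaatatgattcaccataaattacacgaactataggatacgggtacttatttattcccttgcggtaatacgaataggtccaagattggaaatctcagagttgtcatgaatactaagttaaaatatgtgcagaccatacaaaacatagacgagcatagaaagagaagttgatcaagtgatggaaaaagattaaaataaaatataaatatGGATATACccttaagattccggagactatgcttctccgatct
PHT1;7: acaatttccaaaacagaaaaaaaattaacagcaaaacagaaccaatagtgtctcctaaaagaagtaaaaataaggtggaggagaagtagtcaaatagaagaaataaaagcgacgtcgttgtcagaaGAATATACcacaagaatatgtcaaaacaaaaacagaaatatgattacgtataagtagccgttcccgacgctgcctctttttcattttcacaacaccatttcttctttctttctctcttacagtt
AT1G08165: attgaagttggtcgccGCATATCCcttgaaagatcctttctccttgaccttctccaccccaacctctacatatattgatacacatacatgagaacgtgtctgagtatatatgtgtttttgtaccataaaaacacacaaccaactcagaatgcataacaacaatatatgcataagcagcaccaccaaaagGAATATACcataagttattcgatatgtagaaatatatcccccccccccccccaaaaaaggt
The searched letters were GNATATNC, where N is any base. The pattern reads the same on both strands. AT3G25240 holds 2 matches, 193 and 81 bases before its start, SPX3 holds 2 at 213 and 90 bases, and AT1G08165 holds 2 at 234 and 61 bases. AT5G53048, PHT1;7 and PHT1;2 hold 1 each, at 143, 124 and 42 bases. As the 6 genes were taken from the 15 largest differences, all lie far above 0, from 6.05 for AT1G08165 to 9.76 for AT3G25240.

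Over all 18210 genes with a window, 6.23% held at least 1 P1BS in the stretch from 250 bases before to 50 after the start. The share was 32.7% (17 of 52) among genes at least 16-fold higher in *crr* -Pi, 15.3% of those 4- to 16-fold higher, 12.4% of those 2- to 4-fold higher and 9.62% of those with a difference of 0.5 to 1. Below 0 the shares were 5.23% for differences down to -0.5, 5.10% from there to -1, 6.13% from -1 to -2 and 9.09% (7 of 77) for genes at least 4-fold lower. The mean AT content of these windows was 67.4% in the highest bin and 68.6% in the lowest, against 68.0% over all genes. In the 1000 bases before the start, 20.4% of all genes and 51.9% (27 of 52) of the genes at least 16-fold higher held the motif, and 2.91% and 30.8% held at least 2. Here the mean AT content was 66.9% over all genes, 68.8% in the highest bin and 68.4% in the lowest, and its part in the motif shares was not tested. A pair of other motifs, searched on both strands, had no such shape in the window around the start. There the G-box CACGTG stood in 3.85% (2 of 52) of the genes at least 16-fold higher and in 8.65% of all. The evening element AAAATATCT stood in 1.92% (1 of 52) and 2.93%. In the 1000 bases before the start the shares were 9.62% (5 of 52) and 15.8% for the G-box, and 9.62% (5 of 52) and 7.21% for the evening element. Read the other way, 3.53% of genes with no P1BS in the window around the start were at least 2-fold higher in *crr* -Pi. The share was 8.54% for genes with 1 and 19.0% (11 of 58) for genes with 2 or more. A match is a run of letters and not a binding site, and the motif shares carry no test.

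**Figure D2:**
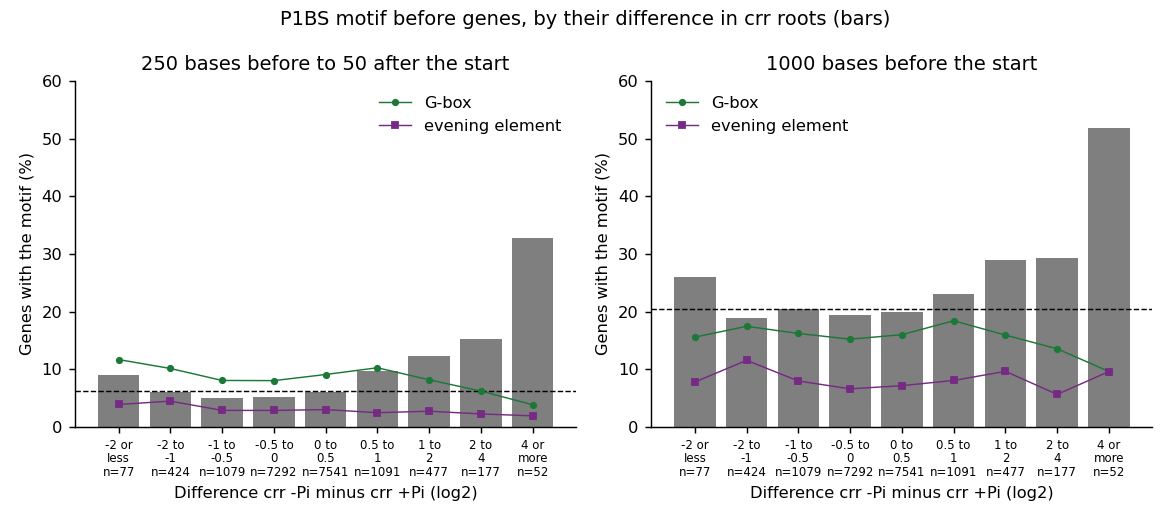
Percent of genes with at least 1 P1BS motif (bars), a G-box (circles) or an evening element (squares), in bins of the difference *crr* -Pi minus *crr* +Pi (log2), with the number of genes under each bin; the dashed line is the P1BS share over all genes. The bar of the highest bin stands at 32.7% in the window around the start (left) and 51.9% in the longer window (right), against 6.23% and 20.4% of all genes.

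Signalling genes held some of the largest differences. Of 16 measured signalling genes, 6 were at least 2-fold higher (all genes 3.88%), none was 2-fold lower, and the median was 0.03. SPX3, whose product binds inositol pyrophosphates, averaged 6.53 log2 CPM in *crr* -Pi and -2.67 log2 CPM in *crr* +Pi roots. Its relative SPX1 averaged 9.03 in *crr* -Pi and 3.43 in *crr* +Pi roots, and SPX2 averaged 6.40 and 4.39. The fourth SPX gene, SPX4, lay the other way at 2.64 in *crr* -Pi and 3.30 in *crr* +Pi roots. PHR1, which is regulated mostly at the protein level, stood at 5.55 log2 CPM in *crr* -Pi and 5.60 in *crr* +Pi roots, and the genes of the kinases that make inositol pyrophosphates or their precursors, VIH1, VIH2 and ITPK1, differed by 0.08, -0.03 and -0.08. PHF1, which lets Pi transporters leave the endoplasmic reticulum, averaged 6.69 in *crr* -Pi and 5.09 in *crr* +Pi roots.

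The non-coding RNAs of the pathway were among the largest differences. IPS1 averaged 7.82 log2 CPM in *crr* -Pi and -1.04 in *crr* +Pi roots, and AT4 averaged 8.01 and 3.34. Both are known to bind the microRNA miR399 without being cut, which spares its target PHO2, a ubiquitin-conjugating enzyme that lowers Pi transporters. Their sequences are printed to show the middle of the site, where target and mimic differ, with the seed of the microRNA (bases 2 to 8) or the bases facing it in capitals, from the TAIR10.1 annotation and genome.
miR399a: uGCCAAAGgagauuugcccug
miR399b and miR399c: uGCCAAAGgagaguugcccug
miR399d: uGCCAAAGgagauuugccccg
miR399e: uGCCAAAGgagauuugccucg
miR399f: uGCCAAAGgagauuugcccgg
IPS1 site: uugggcaacuucuaucCUUUGGCa
AT4 site: uugggcaacuucgaucCUUUGGCa
PHO2 site at chr2:14282106-14282126: uagggcaaaucuuCUUUGGCa
PHO2 site at chr2:14281973-14281993: uagggcauaucucCUUUGGCa
PHO2 site at chr2:14281884-14281904: uugggcaaaucucCUUUGGCa
PHO2 site at chr2:14281827-14281847: ucgagcaaaucucCUUUGGCa
PHO2 site at chr2:14281770-14281790: uagagcaaaucucCUUUGGCa
The mature forms printed share the seed GCCAAAG, and b and c are the same 21 bases. A second mature form annotated for MIR399c has the seed GGCAUCU and is not printed. The sites in IPS1 (chr3:3051224-3051247, plus) and AT4 (chr5:895149-895172, plus) pair with 17 of 21 bases of miR399f and leave 3 bases of the site unpaired. PHO2 (chromosome 2, minus strand) holds 5 sites before its coding sequence, which pair with 18 to 19 of 21 bases of miR399f with no such extra bases. The miR399 precursors were not analysed here. PHO2 averaged 7.65 log2 CPM in *crr* -Pi and 8.45 in *crr* +Pi roots, a difference of -0.80, short of 2-fold. NLA, a ubiquitin ligase that also removes Pi transporters, stood at 3.81 and 4.58. Another RNA without a known protein, AT5G53048, averaged 5.94 log2 CPM in *crr* -Pi roots and was higher by 9.18 than in *crr* +Pi roots; it lies antisense to AT5G53050 and shares 32.7% of its 50-base windows with it, so part of its reads may not be told apart unless counting used strand. Over types, 8 of 143 long non-coding RNAs (5.59%) were at least 2-fold higher and 0 were 2-fold lower. Among protein-coding genes the shares were 3.85% and 2.77%.

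Pi transport held the highest median of the lists, 3.25, with 8 of the 12 genes over the limit, of 13 measured, at least 2-fold higher and none lower. PHT1 proteins carry Pi with protons across the plasma membrane. PHT1;1, the main carrier of well-fed roots, stood at 9.12 log2 CPM in *crr* -Pi and 8.16 in *crr* +Pi roots, just under 2-fold. PHT1;4 averaged 8.94 in *crr* -Pi and 5.93 in *crr* +Pi roots. PHT1;2 averaged 7.08 and 0.26, but it shares 45.2% of its 50-base windows with PHT1;1. In turn PHT1;1 shares 41.9% of its windows with PHT1;2, so the levels of both genes are uncertain. Other members stood under 1 CPM on +Pi. PHT1;8 averaged 2.80 log2 CPM in *crr* -Pi and -4.02 in *crr* +Pi roots, PHT1;5 averaged 2.26 and -3.68, and PHT1;7 averaged 2.13 and -4.45. PHT1;9 averaged 3.49 in *crr* -Pi and -0.35 in *crr* +Pi roots. PHO1, which loads Pi into the xylem, was at 8.49 and 8.71, and its relative PHO1;H1 at 6.44 and 5.63. The glycerol-3-phosphate permease genes G3PP1 and G3PP2 differed by 3.49 and 2.67. PHT1;3 did not reach the limit, at -3.32 in *crr* -Pi and -4.23 in *crr* +Pi roots.

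Genes that release Pi from other molecules followed, with 10 of the 19 over the limit, of 21 measured, at least 2-fold higher, none lower and a median of 1.54. PECP1, a phosphatase of phosphoethanolamine and phosphocholine, had the largest difference of all genes, 12.01. PPSPASE1, a phosphatase of the same family, averaged 8.63 log2 CPM in *crr* -Pi and 3.59 in *crr* +Pi roots. Of the purple acid phosphatases, PAP17 averaged 7.59 and 2.71, and PAP1, PAP12, PAP22 and PAP24 were higher by 1.58 to 2.20. PAP26, the main acid phosphatase of Arabidopsis, was at 8.48 in *crr* -Pi and 8.81 in *crr* +Pi roots. RNS1, a secreted ribonuclease, averaged 4.73 and 1.45, while the vacuolar RNS2 differed by 0.46. PPCK1 and PPCK2, kinases of phosphoenolpyruvate carboxylase, were higher by 1.91 and 1.54, and the carboxylase genes PPC1 and PPC3 by 0.86 and 0.51 at levels above 10 log2 CPM in *crr* -Pi.

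Membrane lipid genes had 8 of 13 members at least 2-fold higher, none lower and a median of 2.89. Among galactolipid synthases, MGD3 averaged 5.71 log2 CPM in *crr* -Pi and 1.05 in *crr* +Pi roots and MGD2 averaged 4.63 and 1.66, while MGD1, which makes the lipids of plastid membranes, stood at 4.43 and 4.04. DGD1 and DGD2, which add the next galactose, differed by 0.81 and 0.98, short of 2-fold. SQD1 and SQD2, which make sulfolipid, were higher by 2.89 and 2.98. On the breakdown side, GDPD1 was higher by 4.37, PLDZ2 by 3.99 and NPC4 by 3.29, and the paralogs PLDZ1 and PAH2 differed by 0.03 and -0.02. GDPD1 shares 42.8% of its windows with the overlapping gene AT3G02030. Together the 13 genes summed to 1524 CPM in *crr* -Pi and 354 CPM in *crr* +Pi roots.

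**Figure D3:**
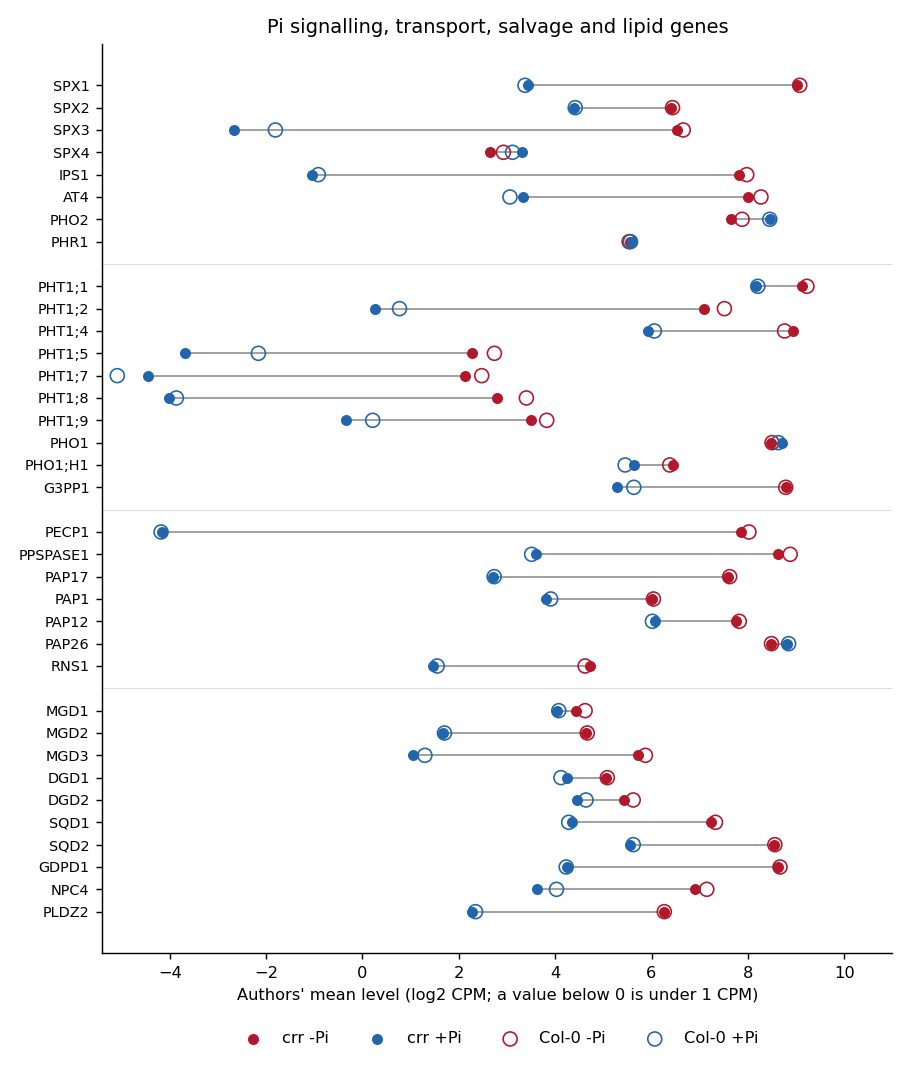
Mean levels (log2 CPM) of genes of Pi signalling, transport, salvage and membrane lipids, each line joining *crr* -Pi (filled red) and *crr* +Pi (filled blue), with Col-0 -Pi and Col-0 +Pi as open circles of the same colours. PHT1;1, PHO1, PAP26 and PHR1 differed by less than 2-fold, while PECP1, SPX3 and IPS1 stood below 0 log2 CPM in *crr* +Pi; PHT1;7 is at the table's lowest value in Col-0 +Pi.

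Other genes among the 15 largest had less known links to Pi. AT1G73220, annotated as an organic cation and carnitine transporter, averaged 7.15 log2 CPM in *crr* -Pi and -0.13 in *crr* +Pi roots. AT3G25240, which lies 15.25 kb from *CRR*, differed by 9.76, with a mean of -4.76 log2 CPM in *crr* +Pi roots, and its Col-0 means were 5.04 on -Pi and the table's lowest value, -5.09, on +Pi. AT2G34210, annotated as a homolog of the elongation factor SPT5, averaged 3.44 in *crr* -Pi and -3.59 in *crr* +Pi roots, and it begins 823 bases after the end of MIR399f on the same strand. The jasmonate biosynthesis gene AOC1 averaged 2.18 and -4.42, and the cell wall peroxidase gene PER52 averaged 4.59 and -1.65. AT2G45135, a RING protein gene 970 bases downstream of SPX3, averaged 3.93 log2 CPM in *crr* -Pi and was listed at the lowest value in *crr* +Pi roots, so no fold is given.

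Root hair genes were higher as a group, with 7 of 11 at least 2-fold higher, 11 of 11 above 0 and a median of 1.45. In bulk roots, more cells of a type and more RNA per cell cannot be told apart. The wall protein genes PRP1 and PRP3 were highest by difference: PRP1 averaged 7.58 log2 CPM in *crr* -Pi and 4.95 in *crr* +Pi roots, and PRP3 averaged 9.66 and 7.60. The hair wall genes LRX1 and XTH14 and the expansin gene EXPA18 were higher by 1.64, 1.81 and 1.62. COW1, needed for tip growth, was higher by 1.45. Of the regulators, RHD6 was higher by 1.16, RSL4 by 0.91 and RSL2 by 0.39, and the NADPH oxidase gene RBOHC by 0.51. The 11 genes summed to 2061 CPM in *crr* -Pi and 642 CPM in *crr* +Pi roots.

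Values at the top of the scale are not corrected for gene length. Among the 225 genes whose higher mean was at least 9 log2 CPM, 10 were at least 2-fold higher (4.44%) and 8 lower (3.56%). Over all genes the shares were 3.88% and 2.76%. Extensins, structural proteins of the wall, were picked out after their values were seen. Of the 225 genes 11 are annotated as extensins or extensin-like, of which 6 were at least 2-fold higher and 0 lower. Since the limit is on the higher mean, a gene can enter through *crr* -Pi alone, as EXT10 and EXT6 did. This favours members that are higher on -Pi, and extensins below the limit were not counted. EXT2 averaged 10.92 log2 CPM in *crr* -Pi and 9.31 in *crr* +Pi roots, EXT10 averaged 10.67 and 8.77, and EXT6 averaged 9.90 and 7.62. EXT3, with the highest log2 CPM in *crr* -Pi, stood at 13.71 and 13.67. BGLU23 (PYK10), the beta-glucosidase of endoplasmic reticulum bodies, was second at 12.92 in *crr* -Pi and 13.75 in *crr* +Pi roots. The next 8 genes by log2 CPM included housekeeping genes such as MS1, SAHH1 and ENO2, which differed by 0.06 to 0.13, and the extensin-like AT3G54580, higher by 1.13.

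Expansins and XTH enzymes, which loosen and rejoin wall polymers, had 9 of 44 members at least 2-fold higher and 3 lower, with a median of -0.06 that turned to 0.13 at a level limit of 3 log2 CPM. XTH26 averaged 5.55 log2 CPM in *crr* -Pi and 0.75 in *crr* +Pi roots, and XTH21 averaged 2.54 and 4.70. Class III peroxidases, which form or break cross-links in walls, had 13 of 52 higher and 6 lower. PER59, PER8 and PER10 were higher by 3.77, 3.57 and 3.11, and PER4 and PER27 had differences of -1.97 and -1.58. Summed over all its 56 members, this family stood at 10743 CPM in *crr* -Pi and 10626 CPM in *crr* +Pi roots. Pectin methylesterases and their inhibitors had 5 higher and 3 lower of 32 (15.6% and 9.4%, all genes 3.88% and 2.76%). Of the arabinogalactan and fasciclin proteins, FLA6 averaged 5.15 in *crr* -Pi and 1.53 in *crr* +Pi roots, and AGP30 averaged 5.86 and 7.86.

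Iron acquisition pointed down, with 5 of 13 genes at least 2-fold lower (all genes 2.76%), 2 higher and a median of -0.65 over the 12 with a fold. IRT1, the main iron importer, averaged 5.06 log2 CPM in *crr* -Pi and 7.71 in *crr* +Pi roots. FRO2, the ferric reductase of the root surface, averaged 5.07 and 7.23. CYP82C4, which makes the iron-mobilizing catechol sideretin, averaged 3.18 and 6.66. S8H, the enzyme before it, was listed at the table's lowest value in *crr* -Pi and at 2.01 log2 CPM in *crr* +Pi roots. The regulator gene FIT stood at 5.07 and 5.74, and F6'H1 and ABCG37, which make and export the coumarins upstream, differed by -0.19 and -0.17. Against this direction, the proton pump gene AHA7 averaged 7.56 in *crr* -Pi and 6.01 in *crr* +Pi roots, and IRT2 averaged 4.42 and 3.07.

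Within iron signalling, 2 of 16 genes were 2-fold lower and none higher. These were the nicotianamine synthase gene NAS1, at 6.79 log2 CPM in *crr* -Pi and 8.44 in *crr* +Pi roots, and BHLH100, at 0.46 and 1.99. BTS, a ligase that limits the iron deficiency response, differed by -0.28 and PYE by 0.21. For storage, FER1, the ferritin gene that answers to both iron and Pi, stood at 7.83 and 7.76, and FER3 and FER4 at differences of 0.09 and -0.14. The VTL genes, which encode relatives of vacuolar iron transporters, were the 3 lower members: VTL1 averaged 2.88 in *crr* -Pi and 4.44 in *crr* +Pi roots, VTL2 averaged 2.14 and 3.61, and VTL5 averaged 5.01 and 6.19.

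In these libraries of whole roots, the known regulators of growth arrest on low Pi hardly moved. None of the 8 over the limit, of 9 measured with *CRR*, passed 2-fold, and their differences ran from -0.11 to 0.27. LPR1, the ferroxidase of the pathway, stood at 3.77 log2 CPM in *crr* -Pi and 3.83 in *crr* +Pi roots. PDR2 was at 7.43 and 7.44, STOP1 at 6.80 and 6.84, and ALMT1, the malate channel, at 5.74 and 5.56. The 4 stem cell niche markers over the limit differed by 0.06 (SCR), 0.09 (SHR), 0.47 (PLT1) and 0.64 (PLT2), and the 4 root cap genes by 0.02 to 0.45, none past 2-fold. Of the 38 cyclin and CDK genes none passed 2-fold, with a range of -0.82 to 0.41, and neither did any of 178 cytosolic ribosomal protein genes. The paper reports a smaller meristem and less cell division at the root tip in *crr* than in Col-0 on -Pi. A change confined to the tip may not show in whole roots and was not tested.

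Copper-linked genes held 1 large difference. CITF1, a bHLH factor that is high when copper is short, averaged 2.47 log2 CPM in *crr* -Pi and -0.27 in *crr* +Pi roots. FSD1, the iron superoxide dismutase, was higher by 0.73, and the copper and zinc enzymes CSD1 and CSD2 had differences of -0.50 and -0.60. FRO4 and FRO5, reductases known from copper uptake, stood at 4.81 against 4.56 and at 1.44 against 1.71 in *crr* -Pi against *crr* +Pi roots. In Col-0 the same genes stood at 6.13 on -Pi against 4.26 on +Pi, and at 4.34 against 1.81. The copper importer gene COPT2 followed the same split, with a difference of -0.42 in *crr* and 0.63 in Col-0.

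Sulfate genes were higher, 6 of 12 past 2-fold with none lower and a median of 1.00. SULTR1;3, a sulfate carrier of the phloem, averaged 4.62 log2 CPM in *crr* -Pi and 0.60 in *crr* +Pi roots. LSU1 and LSU2, named for low sulfur, were higher by 1.68 and 2.11, and SULTR1;1 and SULTR2;1 by 1.44 and 1.13. SULTR1;2, the main importer, was at 7.86 and 8.18. Glucosinolates, which hold sulfur, divided by class. All 13 genes of the aliphatic class lay above 0, from 0.22 to 3.73, though only CYP79F1 and MAM1 passed 2-fold. In the indole class, the regulators MYB51 and MYB122 were higher by 1.02 and 1.01, while CYP79B3 averaged 5.95 in *crr* -Pi and 7.33 in *crr* +Pi roots. CYP81F4, which hydroxylates indole glucosinolates, averaged 8.98 and 10.50. The indole glucosinolate methyltransferase gene IGMT1 averaged 1.21 and 4.41, and its neighbour IGMT3 had a difference of -0.76, short of 2-fold.

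Nitrogen uptake had 1 higher and 1 lower of 11 (9.09% each, all genes 3.88% and 2.76%). NRT1.8, which takes nitrate out of the xylem, averaged 3.77 log2 CPM in *crr* -Pi and 0.78 in *crr* +Pi roots, and NRT1.1, the nitrate carrier and sensor, averaged 8.18 and 9.39. The wider NPF family had 2 higher and 5 lower of 36 (5.56% and 13.9%), with NPF5.6 at -1.79 and 1.52. Plasma membrane aquaporins lay mostly below 0, 11 of 12, with a median of -0.51 and PIP2-3 past 2-fold at a difference of -1.10.

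**Figure D4:**
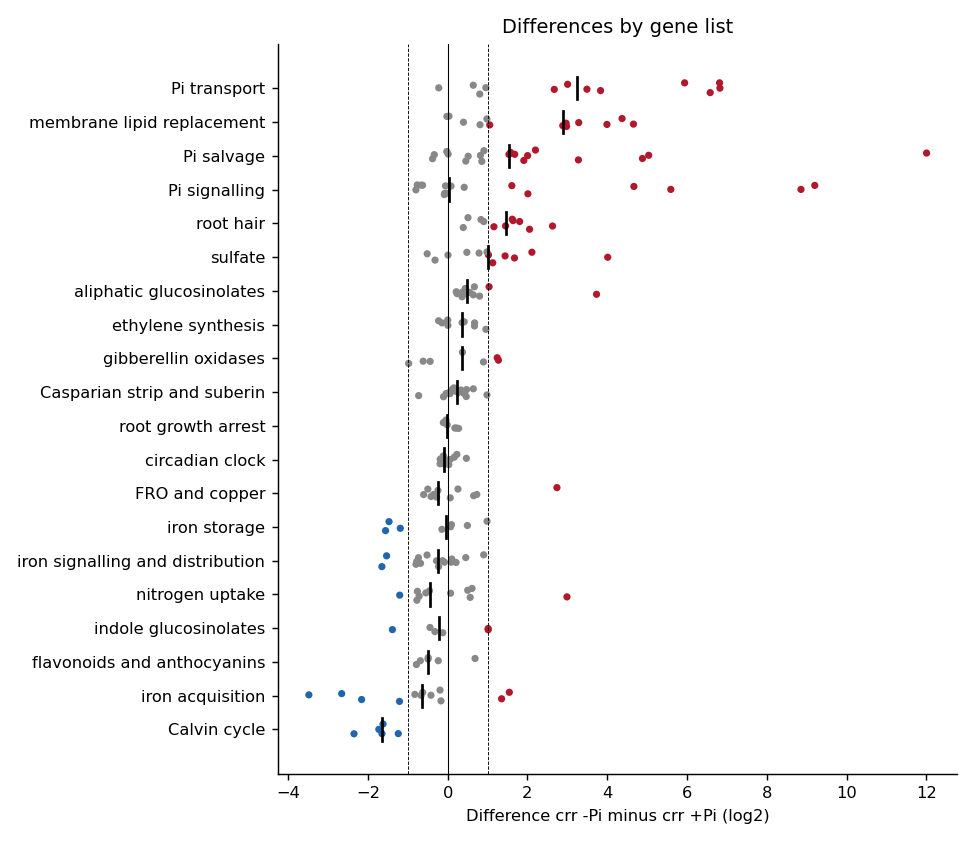
Difference *crr* -Pi minus *crr* +Pi (log2) of each gene over 1 log2 CPM in 20 lists, 1 point per gene, red at least 2-fold higher, blue at least 2-fold lower, with a black bar at the list's median. The medians drawn run from 3.25 for Pi transport and 2.89 for membrane lipids to -0.65 for iron acquisition and -1.65 for the Calvin cycle, and lists of galactinol synthases, strigolactone, cell type markers and gene families are not drawn; the red point near 12 is PECP1, and S8H, at the table's lowest value in *crr* -Pi, is not drawn.

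Of the gibberellin oxidases, 2 of the 7 over the limit, of 10 measured, were at least 2-fold higher and none lower. These were the synthesis genes GA20OX2 and GA20OX3, higher by 1.27 and 1.24, while GA3OX1 and GA3OX2, which act after them, had differences of -0.61 and -0.98. Under the limit, GA2OX1, which inactivates gibberellins, averaged -2.44 log2 CPM in *crr* -Pi and 0.91 in *crr* +Pi roots, and GA2OX4 averaged -0.39 and -2.37. LBO, an enzyme of strigolactone synthesis and the 1 of 5 genes of that list past 2-fold, averaged 4.77 log2 CPM in *crr* -Pi and 3.47 in *crr* +Pi roots. None of 9 ethylene synthesis genes passed 2-fold, with ACS11 nearest at 0.96. The 14 clock genes ran from -0.19 to 0.47, CCA1 at 3.66 and 3.85 among them. Casparian strip and suberin genes had 0 of 16 past 2-fold and a median of 0.22, with MYB36, the regulator of the Casparian strip, nearest at 5.19 in *crr* -Pi and 4.20 in *crr* +Pi roots.

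Among transcription factors, 8 of 52 WRKY genes were at least 2-fold higher and 0 lower. WRKY28 averaged 2.08 log2 CPM in *crr* -Pi and -0.07 in *crr* +Pi roots, and WRKY45, which is known to act on PHT1;1 in the Pi response, averaged 3.32 and 2.05. WRKY75, another factor tied to Pi, stood at 2.44 and 3.07. MYB15 averaged 3.03 and 0.02, ERF114 averaged 1.55 and -2.85, and NAC029 averaged 1.66 and -0.90. Of 44 MYB genes 3 were higher and 2 lower (6.82% and 4.55%), with MYB20 at -0.66 in *crr* -Pi and 1.46 in *crr* +Pi roots. The ERF, NAC and bHLH families had members on both sides, with 6 higher and 2 lower of 50, 3 and 3 of 45, and 4 and 2 of 58. Over all genes 3.88% were higher and 2.76% lower, against 6.67% and 6.67% of the NAC and 6.90% and 3.45% of the bHLH genes. NAC035 had the largest difference on the low side of these families, at -1.73 in *crr* -Pi and 2.38 in *crr* +Pi roots.

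On the low side, amino acid exporters led. UMAMIT17 averaged -0.13 log2 CPM in *crr* -Pi and 4.69 in *crr* +Pi roots, and its neighbour in the same family UMAMIT20 averaged -0.56 and 3.91. Not all of the family lay that way, as 6 of 34 WAT1-related genes were at least 2-fold higher, UMAMIT35 by 3.04. AT5G62360, annotated as a pectin methylesterase inhibitor, averaged -2.37 and 1.66, and AT5G61290, a flavin-containing monooxygenase gene, averaged -1.83 and 1.95. The cytokinin hydroxylase genes CYP735A1 and CYP735A2, which make trans-zeatin types, had differences of -1.47 and -2.60. In all, 16 of 134 cytochrome P450 genes were 2-fold lower and 7 higher (11.9% and 5.22%, all genes 2.76% and 3.88%). Of the 4 galactinol synthases, GOLS1 and GOLS4 had differences of -1.37 and -1.95 and the others lay within 0.04 of 0. For flavonoids, CHS, CHI, F3H and FLS1 lay below 0, from -0.49 to -0.78, as did F3'H at -0.24, while the regulator MYB12 lay at 0.69, and none of the 6 over the limit passed 2-fold. MYB111, another regulator under the limit, averaged -0.21 in *crr* -Pi and -3.91 in *crr* +Pi roots. DFR, an enzyme gene also under the limit, lay the other way with a difference of -1.78.

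Genes of green tissue were also lower. Of 41 photosystem, light harvesting and related genes over the limit, 26 were at least 2-fold lower and none higher, with a median of -1.21, and 5 more of the 46 measured did not reach it. The 46 genes summed to 538 CPM in *crr* -Pi and 757 CPM in *crr* +Pi roots, against 583 and 742 CPM in Col-0 -Pi and Col-0 +Pi roots. PSBO2 averaged 1.47 log2 CPM in *crr* -Pi and 3.80 in *crr* +Pi roots. All 5 Calvin cycle genes over the limit were 2-fold lower, and RCA, rubisco activase, averaged 3.45 and 5.10. Roots in light can form some chloroplasts, and these levels stand beside the other lower genes; their part in those differences was not tested. Of the 4 xylem and phloem markers over the limit, XCP1 and XCP2 both had differences of -0.61, SUC2 of -0.67 and APL of 0.13.

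Col-0 roots gave the same picture for most genes. On -Pi, 584 of 18224 genes (3.2%) were at least 2-fold higher and 384 (2.11%) lower than on +Pi. The differences of the genotypes correlated across genes (Pearson r 0.890 over 18048 genes), which is a description, since genes are not independent and all libraries share 1 scaling. Of the 706 genes higher in *crr*, 491 (69.5%) were also at least 2-fold higher in Col-0, which is 84.1% of the Col-0 set. Of the 502 lower genes, 242 (48.2%) were also lower in Col-0, 63.0% of its set. Genes chosen for passing 2-fold in *crr* will tend to lie nearer to 0 in the other genotype. Their median was 1.60 in *crr* and 1.41 in Col-0 on the high side, and -1.38 and -0.98 on the low side. Almost all pointed the same way, 694 of 706 and 493 of 502. The green tissue genes had 26 members 2-fold lower in *crr* and 8 in Col-0, with medians of -1.21 and -0.73, a gap that was not tested.

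Opposite differences past 2-fold occurred in 2 genes. AT1G52820, a 2-oxoglutarate and iron dependent oxygenase gene, averaged 2.84 log2 CPM in *crr* -Pi and 1.12 in *crr* +Pi roots, against 0.73 and 2.27 in Col-0 -Pi and Col-0 +Pi roots. It overlaps AT1G52825 on the other strand by 33 bases. AT5G09735, a long non-coding RNA, averaged 2.17 and 1.12 in *crr*, against 0.26 and 1.38 in Col-0. IPSP, a phosphoserine phosphatase, averaged 5.41 in *crr* -Pi and 3.67 in *crr* +Pi roots, against 3.30 and 3.76 in Col-0. AT1G52800, a relative of AT1G52820, was higher by 2.95 in *crr* and by 0.94 in Col-0. For SCPL32 and EXPB2 both genotypes lay below 0, with SCPL32 at -1.81 in *crr* and -4.54 in Col-0.

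The largest gap in the other direction was that of FRO5, -0.28 in *crr* against 2.53 in Col-0. AT3G52720, alpha carbonic anhydrase 1, averaged 1.25 log2 CPM in *crr* -Pi and 0.32 in *crr* +Pi roots, against 2.65 and -0.66 in Col-0. KCS12, of fatty acid elongation, and the glycine-rich GRP3S had differences of -1.60 and -1.83 in *crr*, against 0.46 and 0.20 in Col-0. UMAMIT17 and NAC035 were lower in both, by differences of -4.82 against -2.72 and -4.11 against -1.85. PRFB3, which is known for chloroplast transcripts, had -2.64 against -0.68. Whether any of these gaps exceeds the spread between libraries was not tested here.

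**Figure D5:**
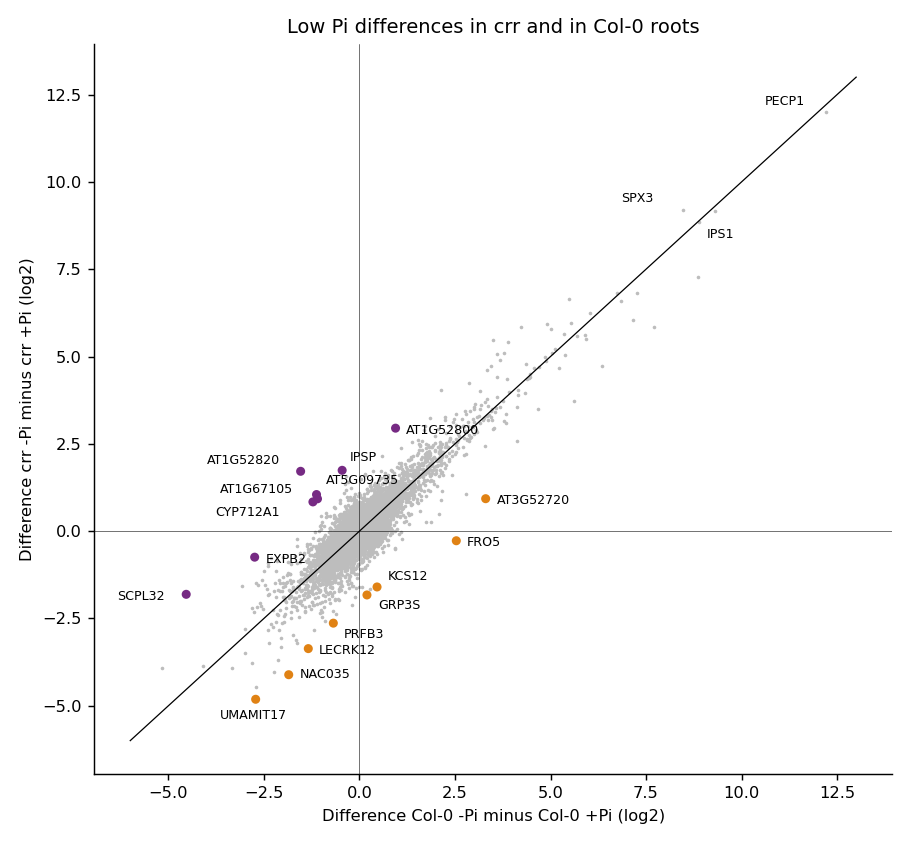
Difference *crr* -Pi minus *crr* +Pi (vertical, log2) against Col-0 -Pi minus Col-0 +Pi (horizontal, log2), 1 grey point per gene over 1 log2 CPM in a *crr* group, with the line of equal differences. Purple points are the 8 genes with the largest positive gap between *crr* and Col-0, led by AT1G52820 at 1.71 against -1.54, and orange points the 8 with the largest negative gap, led by FRO5 at -0.28 against 2.53.

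Some of the differing genes were neighbours. In the order of the positions read from the expression table, 7 stretches of the 19976 genes held at least 3 adjacent measured genes past 2-fold one way. Of these stretches 6 were higher, with 21 genes in all. For some genes, CYP706A1 among them, the position was misread as the first base of a chromosome. A stretch can therefore be missed or falsely joined. SPX3 lies between ZAT4 and AT2G45135 within 7.12 kb. The hair and wall genes XTH12, XTH13 and XTH22 span 8.36 kb, and were higher by 2.47, 3.23 and 1.22. SULTR1;3 is followed by AT1G22160 and AT1G22170 within 10.7 kb. The TIR disease resistance genes AT1G72890, AT1G72900 and AT1G72920 span 9.29 kb, and WRKY38 closes a stretch of 7.62 kb with AT5G22555 and AT5G22560. In AT4G31240, AT4G31250 and AT4G31248, the last RNA overlaps AT4G31250 on the other strand and shares 82.3% of its windows with it, so they cannot be told apart without strand. The single lower stretch was NPF1.2, PCR8 and CURT1C over 20.3 kb.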

How the data were processed

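RNA of pooled roots was sequenced in 3 libraries per group. The labels name a column kit for extraction and the paper's methods name Trizol, which was not settled. According to the paper and the submitters' processing notes, reads were trimmed (cutadapt 1.8), freed of ribosomal and low-complexity reads, aligned to TAIR10 (STAR 2.5.3a) and counted per gene (HTSeq 0.9.1); RSEM 1.2.31 is also listed. Whether strand was used is not given in the sources used here. Genes below 1 CPM in every sample were dropped by the authors, and log2 CPM came from TMM-scaled libraries in edgeR 3.24.3 under R 3.5.3. The deposited log2 values are the authors' mean per group, which hold no counts, so no count test was made. The depth of each library was not used. The 5 deposited tables of comparisons, which hold fold changes, p-values and an interaction, were not used.

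Differences of group means were computed in Python 3.11.15 (pandas 2.3.3, numpy 2.4.6), with the limits given in the report. The 2-fold calls and the count of P1BS matches were tested on simulated data, and the other steps were not. Genes at the table's lowest value, -5.09, got no fold in the text (19 in a *crr* group) and were left out of list medians. Where they reached the level limit, as S8H and AT2G45135 did, they stayed in the counts of genes past 2-fold and in the neighbour stretches. Lists hold 293 genes, of which 27 were not analysed here, and 22 families were found by name. The members and lists were chosen with earlier results of these data known. Named were the 15 largest differences on each side, up to 6 members past 2-fold per list or 2 where none passed, all of some pathway lists, the 8 largest gaps between genotypes on each side, the 10 highest levels, neighbour stretches and *CRR*. Coordinates are those of the RefSeq annotation of TAIR10.1, in which 99.5% of 19973 genes had the same start and end as in the table. Shared sequence was the share of a transcript's 50-base windows found in another gene. Alternatives changed the level limit, the fold, the log scale, the centring and the scaling.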

Additional observations from a re-analysis of the deposited data

How the results depend on the processing

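The counts of genes depended on where the limits were set. With a level limit of 3 in place of 1 log2 CPM, 407 genes were at least 2-fold higher and 291 lower in *crr* -Pi. At 1.5-fold the counts were 1477 and 1265, and at 4-fold 229 and 77. Without a level limit they were 1012 and 724, with log2(CPM + 1) 543 and 358, after centring on the median 700 and 511, and after rescaling to equal summed CPM 715 and 497. Under log2(CPM + 1), 148 of 414 named differences moved by more than 0.167, the largest by 4.76, and rescaling moved none by more than 0.167. No named difference changed sign under either. The size and order of the largest differences, such as those of PECP1 and AT3G25240, thus rest on *crr* +Pi means near the table's lowest value. At the limit of 3 log2 CPM the median of Pi transport was 2.67 and that of Pi salvage 1.22, and 3 list medians changed sign, gibberellin oxidases to -0.61, expansins and XTH to 0.13, and WAT1-related transporters to -0.013. In alternatives chosen after seeing the data, the level limit of 3 left 4 genes past 2-fold between *crr* +Pi and Col-0 +Pi, an r of 0.918 with Col-0 and 2 neighbour stretches, and no limit gave 14 stretches. At that limit 46.7% (14 of 30) of the genes at least 16-fold higher held P1BS. No paired analysis was possible because the table holds 1 mean per group, and for the same reason no replicate could be left out.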

Other observations

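Transcripts named for other conditions also differed. Glutathione S-transferase genes, which join glutathione to toxic compounds, had 5 of 42 members at least 2-fold higher and 1 lower in *crr* -Pi roots, with GSTU12 at 3.44 log2 CPM in *crr* -Pi and -0.51 in *crr* +Pi roots, and GSTF6 at 6.81 and 4.57. The shares were 11.9% and 2.38%, against 3.88% and 2.76% over all genes. Of the UDP-glycosyltransferases, 6 of 75 (8.0%) were higher and 1 (1.33%) lower. UGT86A1 averaged 1.79 in *crr* -Pi and -2.95 in *crr* +Pi roots. The jasmonate repressor gene JAZ10 averaged 1.88 and 0.15. Of the ABC transporters, 4 of 79 (5.06%) were higher and 3 (3.80%) lower, near the shares over all genes. ABCB5 averaged 3.70 in *crr* -Pi and 0.93 in *crr* +Pi roots, and ABCG15 averaged 1.27 and 2.38. Of the heat shock genes, 2 of 26 were at least 2-fold lower and none higher, with a median of -0.09, and HSP26.5 averaged 0.98 in *crr* -Pi and 2.73 in *crr* +Pi roots. These are values with no test.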
